A study of Mus musculus with 18 samples.

Results

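The interleukin-1 family genes Il1a, Il1b, Il18, Il33, Il1rn, Il1r1 and Il1r2 were followed together with Nlrp3, Osm and Acod1 in RNA libraries of mouse bile duct cells. These 10 genes were picked by name from 55401 counted genes, and Acod1 is among them because its CPM (counts scaled by the library's TMM-adjusted total) was higher in the treated groups. That difference is therefore described below and not tested. RNA was sequenced from primary cholangiocytes, the lining cells of bile ducts, of wild-type (WT) mice and of mice with polycystic liver disease (PLD), a disorder of cysts that grow from those ducts. The 18 libraries form 6 groups of 3: WT at 1 month, PLD at 1 month, WT at 2 months and PLD at 2 months, all counted from tamoxifen induction, and PLD given CPTH6 or ML324, whose titles say 3 months. As background, CPTH6 blocks histone acetyltransferases and ML324 blocks the KDM4 histone demethylases. All cells came from minced bile ducts of perfused livers and were captured on magnetic beads through EpCAM, an adhesion protein of epithelial cells. The labels name neither the inactivated gene nor the driver of recombination, and no dose or age. They also do not say whether replicates are separate animals, so the p-values cover the spread among these libraries alone, and that spread may be technical. Compound, time since tamoxifen and separately described library construction changed together, so in any comparison of treated with untreated PLD they cannot be told apart.

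Interleukin-1 alpha and interleukin-1 beta are inflammatory cytokines that bind the receptor encoded by Il1r1. The antagonist encoded by Il1rn occupies that receptor without signalling, and the decoy receptor encoded by Il1r2 binds the cytokine without passing on a signal. Interleukin-1 beta and interleukin-18 are made as precursors that caspase-1 cleaves after inflammasomes such as that of NLRP3 assemble. Interleukin-33 is a nuclear alarmin released from damaged epithelial, endothelial and stromal cells. Oncostatin M, encoded by Osm, is a cytokine of the interleukin-6 family made by myeloid cells. Acod1 encodes the mitochondrial enzyme that makes itaconate from cis-aconitate and is known as strongly induced in activated macrophages and neutrophils.

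Promoter sequence was available for 9 of the 10 genes in RefSeq (GRCm38.p6), and 4 windows are shown here because Acod1, Il1b, Il1rn and Nlrp3 had higher values in both treated groups and a RefSeq start near the first counted base. Il1r2 was higher in both too, but its RefSeq start lies 12014 bases from its first counted base, so its window is not shown. Each is the stretch just before the gene's first counted base, 5′ to 3′ on the gene's strand, with motif matches in capitals. The window of Acod1 is chr14:103046762-103046976 on the plus strand, that of Il1b chr2:129371140-129371389 on the minus strand, that of Il1rn chr2:24336610-24336852 on the plus strand and that of Nlrp3 chr11:59541319-59541567 on the plus strand.
Acod1: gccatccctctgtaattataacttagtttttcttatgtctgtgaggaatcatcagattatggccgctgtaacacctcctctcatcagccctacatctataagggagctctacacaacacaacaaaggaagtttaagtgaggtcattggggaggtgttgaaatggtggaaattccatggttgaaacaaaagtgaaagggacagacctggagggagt
Il1b: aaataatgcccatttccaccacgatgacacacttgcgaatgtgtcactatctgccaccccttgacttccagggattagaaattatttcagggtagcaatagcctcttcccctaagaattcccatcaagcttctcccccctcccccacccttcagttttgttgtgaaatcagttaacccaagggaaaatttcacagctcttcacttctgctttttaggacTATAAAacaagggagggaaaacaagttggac
Il1rn: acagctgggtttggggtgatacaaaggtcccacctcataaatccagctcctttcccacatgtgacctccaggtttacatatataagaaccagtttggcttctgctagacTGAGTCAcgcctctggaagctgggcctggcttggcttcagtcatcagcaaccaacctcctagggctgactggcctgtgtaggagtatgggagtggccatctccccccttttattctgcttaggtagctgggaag
Nlrp3: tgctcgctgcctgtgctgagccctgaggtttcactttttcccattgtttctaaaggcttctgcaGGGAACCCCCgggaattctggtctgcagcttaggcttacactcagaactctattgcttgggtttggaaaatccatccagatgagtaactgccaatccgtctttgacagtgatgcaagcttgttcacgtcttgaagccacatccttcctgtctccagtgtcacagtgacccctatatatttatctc
Searched on both strands were a TATA box (TATAAA), an AP-1 motif (TGANTCA), a C/EBP motif (TTGCNNAA), an ETS motif (GAGGAAG), an interferon-stimulated response motif and the NF-kB motif. Positions are counted back from the RefSeq start. Il1rn has 3 RefSeq windows, and Nlrp3, Il1r1 and Il33 have 2 each. Only the window nearest the first counted base was searched for each gene. The Il1b window held a TATA box 31 to 26 bases before it, a motif present in 12.37% of 32851 RefSeq windows of that length. The Il1rn window held an AP-1 match 141 to 135 bases before its start, present in 6.64% of windows cut to 243 bases. The Nlrp3 window held an NF-kB match 186 to 177 bases before its start, present in 3.85% of windows of 249 bases. No searched motif was found in the 215 bases shown for Acod1. A match describes letters only and shows no bound factor. Of the other windows, Il1a held a TATA box at 32 to 27, an ETS match at 41 to 35 and an AP-1 match at 12 to 6 bases before its start, without overlap between them. Il18 held a TATA box at 175 to 170 and Il33 at 203 to 198 bases before the start, Il1r1 a C/EBP match at 133 to 126, and Il1r2 none of the motifs.

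Total counts ran from 16345740 to 29277311 per library, and all 10 genes passed the filter on low counts in every fit. Cholangiocyte markers (15 genes, all with a count in every group) summed to 2610 to 10500 CPM in WT, 8970 to 15400 in untreated PLD and 16800 to 23800 in treated PLD. At 2 months Krt19, the keratin stained for purity, averaged 230 ± 57 CPM in WT and 2820 ± 211 in PLD (SD, n = 3). At the same time endothelial markers summed to 7900 to 13600 CPM in WT and 723 to 1440 in PLD, and stellate cell and fibroblast markers to 282 to 944 in treated PLD against 3350 to 7510 in PLD at 2 months. These sums are not scaled by gene length. Fewer cells of a type and less RNA per cell cannot be told apart in such libraries. Libraries that stood apart were WT replicate 3 at 1 month, with a cholangiocyte sum of 10500 against 3670 and 3850 in its group, WT replicate 1 at 2 months, with 40039 genes counted against 22780 to 30332 elsewhere, and ML324 replicate 2, with endothelial markers at 697 against 157 and 165. Without both of the WT libraries, edgeR also called Il33 (-0.73 log2, adjusted p = 0.0123) and Osm (-2.45, adjusted p = 0.0315) in PLD against WT at 1 month, and Il33 between the times in PLD (-0.46, adjusted p = 0.0434) and in the interaction of genotype and time (-1.10, adjusted p = 0.0215). Without ML324 replicate 2 alone, the uncalled differences of CPTH6 from ML324 became 0.08 for Acod1 and 0.04 for Il1r2, where all libraries gave negative values.

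**Figure D1:**
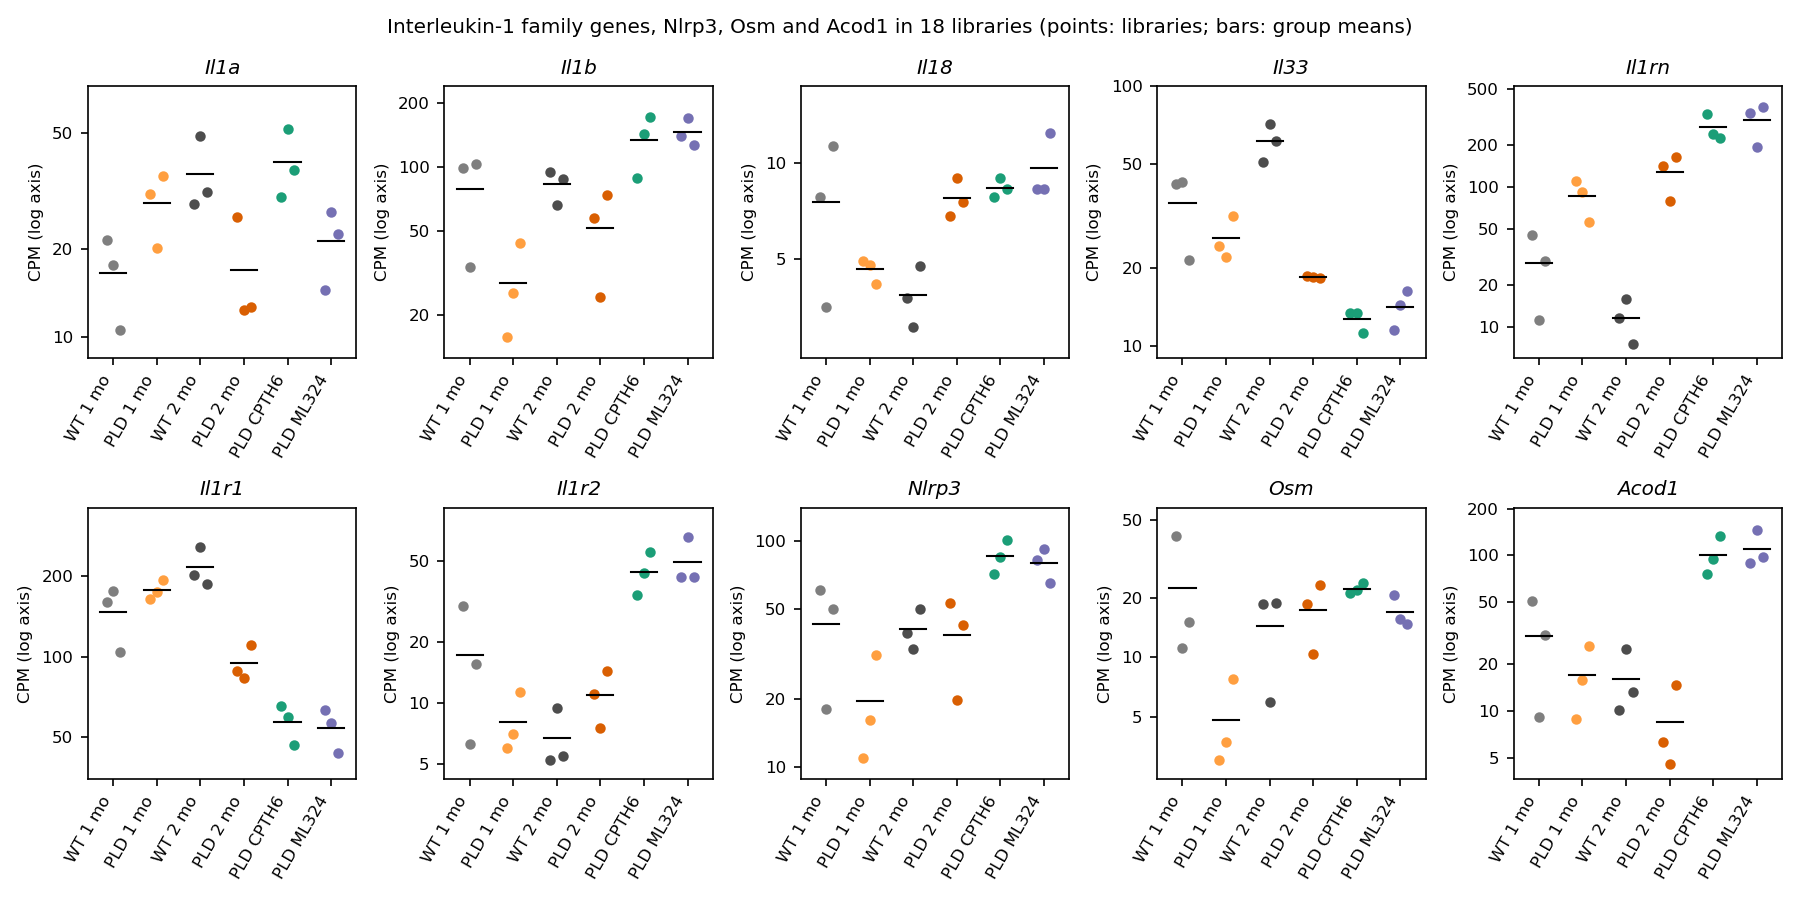
CPM of the 10 genes (log axis) in each of 18 libraries, by group; points are libraries and horizontal bars are means of 3. Acod1 lies between 75.5 and 145 CPM in the 6 treated libraries and at or below 51.1 in the 12 untreated ones, while Il33 and Il1r1 run the other way.

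Among the 4 cytokine genes of the family, Il1b (ENSMUSG00000027398.13, chromosome 2 from 129364570 to 129371139, minus strand, mm10) had the highest mean per kilobase of exon in every group. In PLD at 1 month its 14.8 ± 7.41 CPM per kilobase did not differ from the 14.6 ± 3.98 of Il1a beyond the spread (SD, n = 3). Its level at 2 months was 43.3 ± 7.64 CPM per kilobase in WT and 27.1 ± 13.1 in PLD (SD, n = 3). In WT libraries Il1b had 98.9, 33.7 and 103 CPM at 1 month and 94, 66.2 and 87.5 at 2 months. In PLD it had 15.8, 25.4 and 43.6 CPM at 1 month and 57.2, 24.4 and 73.3 at 2 months. The genotypes overlapped at both times, through WT replicate 2 at 1 month and PLD replicate 3 at 2 months. The difference of PLD from WT was -1.49 ± 0.50 log2 at 1 month (SE, edgeR adjusted p = 0.105) and -0.65 ± 0.49 at 2 months (adjusted p = 0.316). Neither passed the threshold of 0.05. The counting ignored strand, and the antisense gene Il1bos inside Il1b held at most 47 counts in a library.

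Il1a (chromosome 2 from 129299610 to 129309972, minus strand) encodes the form that acts without inflammasome cleavage. Its WT libraries had 21.5, 17.7 and 10.6 CPM at 1 month and 28.6, 48.9 and 31.4 at 2 months. Its PLD libraries had 30.9, 20.2 and 35.5 CPM at 1 month and 25.7, 12.4 and 12.7 at 2 months. At 2 months all 3 PLD libraries were below all 3 WT libraries, and Il1a fell by 1.08 on the log2 scale (SE 0.36, edgeR adjusted p = 0.0354). The call was lost when either of PLD replicates 2 and 3 (adjusted p = 0.125 and 0.122) or either of WT replicates 2 and 3 (0.144 and 0.0509) at 2 months was left out. At 1 month the difference was 0.78 ± 0.36 (adjusted p = 0.214), with overlap. Reads of the opposite-strand gene Gm14023 within Il1a, at most 57 counts in a library, cannot be told from its own where exons overlap.

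Il33 (chromosome 19 from 29925114 to 29960718, plus strand) had 50.9, 71.5 and 61.6 CPM in WT at 2 months and 18.7, 18.5 and 18.4 in PLD. The groups lay far apart and the PLD libraries were nearly equal. Il33 fell by 1.71 on the log2 scale (SE 0.25, edgeR adjusted p = 0.000581), which is 3.26-fold. The call held in 13 of 13 alternative settings, with changes from -1.83 to -1.55. At 1 month it had 42, 42.9 and 21.5 CPM in WT and 24.3, 22.1 and 31.7 in PLD, a difference of -0.46 ± 0.24 (adjusted p = 0.273). WT replicate 3, which stood apart, was the lowest of these 6. Without it the 1 month difference was -0.72 and passed the threshold (adjusted p = 0.017).

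Il18 (chromosome 9 from 50554827 to 50581840, plus strand) was low throughout, at 3.06 to 12.4 CPM over the 18 libraries. At 2 months it had 3.77, 3.06 and 4.74 CPM in WT and 6.8, 8.95 and 7.54 in PLD, without overlap. Il18 rose by 1.03 ± 0.35 log2 (SE, edgeR adjusted p = 0.0371), a 2.04-fold change. The call was lost with limma-voom (adjusted p = 0.0566), when any PLD library at 2 months was left out (0.0592, 0.1 and 0.07 for replicates 1 to 3), and when WT replicate 1 (0.0932) or 2 (0.122) was. At 1 month the sign was the other way and not called, -0.72 ± 0.35 (adjusted p = 0.233). The genes Bco2 and Tex12 overlap Il18 on the opposite strand, and Bco2 held at most 95 counts in a library.

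Il1rn (ENSMUSG00000026981.15, chromosome 2 from 24336853 to 24351494, plus strand), the receptor antagonist, had the largest genotype difference of the 10 genes at 2 months. WT libraries had 45.4, 11.2 and 29.8 CPM at 1 month and 11.7, 15.9 and 7.57 at 2 months. PLD libraries had 111, 91.8 and 56.1 CPM at 1 month and 142, 79.6 and 165 at 2 months. Every PLD library was above every WT library of its own time. At 2 months Il1rn rose by 3.48 ± 0.51 log2 (SE, edgeR adjusted p = 0.000597), 11.1-fold, and stayed called in 13 of 13 alternative settings (3.25 to 3.78). At 1 month the difference was 1.57 ± 0.48 (adjusted p = 0.0793), which missed the threshold in edgeR and passed it in DESeq2 (adjusted p = 0.0156). Cholangiocyte markers moved the same way, with 9 of 15 higher and none lower in PLD at 2 months, where 19.7% of all genes rose. Their part in the Il1rn result was not tested.

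Il1r1 (chromosome 1 from 40225080 to 40317257, plus strand), the signalling receptor, had 202, 257 and 186 CPM in the WT libraries at 2 months and 88.5, 83.5 and 111 in those of PLD. It fell by 1.17 log2 in PLD (SE 0.21, edgeR adjusted p = 0.00154), 2.25-fold, with no overlap, and stayed called in 13 of 13 alternative settings (-1.26 to -0.99). At 1 month it had 160, 175 and 104 CPM in WT and 164, 174 and 193 in PLD, which overlapped (0.25 ± 0.20, adjusted p = 0.477). The change of the genotype difference between 1 and 2 months was itself tested and was -1.42 ± 0.29 (edgeR adjusted p = 0.0252). All 13 endothelial markers fell in PLD at 2 months (median -3.25, against -0.03 over all genes), where 20.3% of all genes fell. Of the mesothelial markers 5 of 6 tested fell and 1 rose. Of the 12 stellate cell and fibroblast markers 5 fell and 0 rose. These 3 lists are set beside the falls of Il33 and Il1r1, and their part in these results was not tested.

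Il1r2 (chromosome 1 from 40074079 to 40125231, plus strand), the decoy receptor, had 29.8, 6.28 and 15.5 CPM in WT and 5.99, 7 and 11.3 in PLD at 1 month. At 2 months it had 5.26, 9.49 and 5.46 CPM in WT and 11.1, 7.5 and 14.4 in PLD. The groups overlapped at both times, and the differences of -1.10 ± 0.49 (edgeR adjusted p = 0.204) and 0.73 ± 0.50 (adjusted p = 0.266) were not called. Gm37347, on the same strand inside Il1r2, held at most 66 counts in a library.

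The ratio of antagonist to cytokine was taken within each library as Il1rn per Il1b, both per kilobase. It was 0.0994 to 0.158 in WT and 0.443 to 2.41 in PLD at 1 month. It was 0.0298 to 0.0827 in WT and 0.773 to 1.12 in PLD at 2 months. The groups did not overlap at either time, with mean log2 differences of 3.18 and 4.26 (exact two-sided permutation p = 0.1 for each, the smallest that 3 against 3 allows, and 0.2 after Benjamini-Hochberg adjustment over 6 ratio tests). The ratio of decoy to signalling receptor, Il1r2 per Il1r1, was 0.0869 to 0.123 in WT and 0.3 to 0.43 in PLD at 2 months, a log2 difference of 1.9 (exact permutation p = 0.1, adjusted 0.2). At 1 month the receptor ratio overlapped between the genotypes, 0.12 to 0.619 in WT and 0.122 to 0.194 in PLD.

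**Figure D2:**
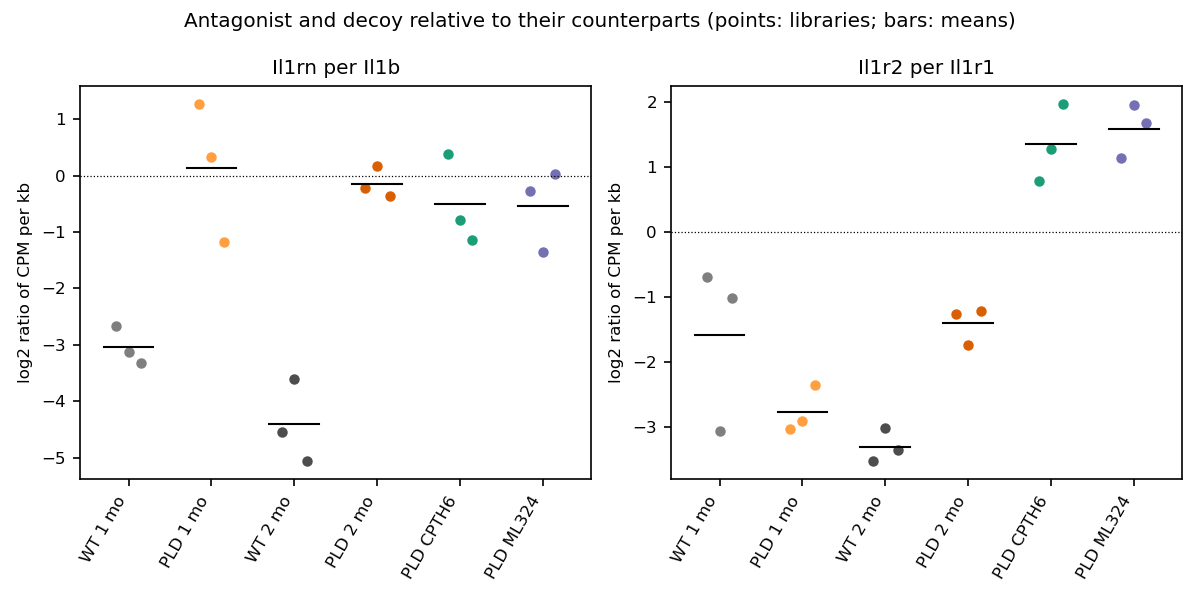
Log2 ratio of Il1rn to Il1b (left) and of Il1r2 to Il1r1 (right), each as CPM per kilobase within a library; points are libraries, bars are means of 3 and the dotted line marks equal levels. Il1rn per Il1b separates PLD from WT at both times, and Il1r2 per Il1r1 lies above equality in the 6 treated libraries, at 1.73 to 3.92.

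Nlrp3 (chromosome 11 from 59541568 to 59566956, plus strand), the inflammasome sensor, had 61.1, 18.1 and 50.4 CPM in WT and 11, 16.2 and 31.4 in PLD at 1 month. At 2 months it had 39.1, 33.4 and 50.1 CPM in WT and 53.5, 19.7 and 42.4 in PLD. The groups overlapped at both times, and neither difference was called (-1.16 ± 0.50, edgeR adjusted p = 0.19, and -0.06 ± 0.50, adjusted p = 0.934). Osm (chromosome 11 from 4236420 to 4241026, plus strand) had 41.2, 11.1 and 15.2 CPM in WT and 3, 3.71 and 7.72 in PLD at 1 month, without overlap. Its difference of -2.24 ± 0.61 was not called in edgeR (adjusted p = 0.0586) and was called in DESeq2 (adjusted p = 0.00287) and in edgeR without WT replicate 3 (-2.44, adjusted p = 0.0232). At 2 months Osm had 18.6, 5.94 and 18.9 CPM in WT and 18.7, 10.4 and 23.3 in PLD, with overlap (0.29 ± 0.58, edgeR adjusted p = 0.713). At 1 month macrophage and Kupffer cell markers summed to 1470 to 2840 CPM in WT and 1120 to 1440 in PLD. In that list 2 of 18 fell, Ccr2 and Cd163, where 5.03% of all genes were called in either direction. The markers of the list had a median of -1.51 against -0.05 over all genes. Their part in the lower Osm, Nlrp3 and Il1b values at 1 month was not tested.

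Acod1 (ENSMUSG00000022126.6, chromosome 14 from 103046977 to 103056573, plus strand) had 51.1, 9.22 and 30.8 CPM in WT and 8.93, 15.8 and 26.2 in PLD at 1 month. At 2 months it had 10.1, 24.9 and 13.2 CPM in WT and 6.33, 4.55 and 14.8 in PLD. Libraries of 1 group differed up to several-fold and the genotypes overlapped at both times. The differences of -0.85 ± 0.63 (edgeR adjusted p = 0.445) and -0.88 ± 0.65 (adjusted p = 0.297) were not called.

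Of the 10 genes, 5 were called at 2 months, Il1rn and Il18 higher and Il1a, Il1r1 and Il33 lower, in a comparison that called 40.0% of all 17749 genes tested, 19.7% higher and 20.3% lower. All 5 separated the genotypes without overlap, as did 26.1% of all genes upward and 29.3% downward. That share of the 10 is near the background and says nothing particular about them. At 1 month none of the 10 was called by edgeR, where 5.03% of all genes were called. An unadjusted edgeR p under 0.05 was seen for 5 of the 10 (Il1b, Il1rn, Il1r2, Nlrp3 and Osm), and for 4297 of all 17749 genes. DESeq2, which called more genes in all, called 3 of the 10 (Il1b, Il1rn and Osm). No overlap between genotypes at 1 month was seen for Il1rn, higher, as for 15.1% of all genes, and for Osm, lower, as for 11.6%. The median change of the 10 was -0.78 at 1 month and -0.36 at 2 months, against -0.05 and -0.03 over all genes.

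**Figure D3:**
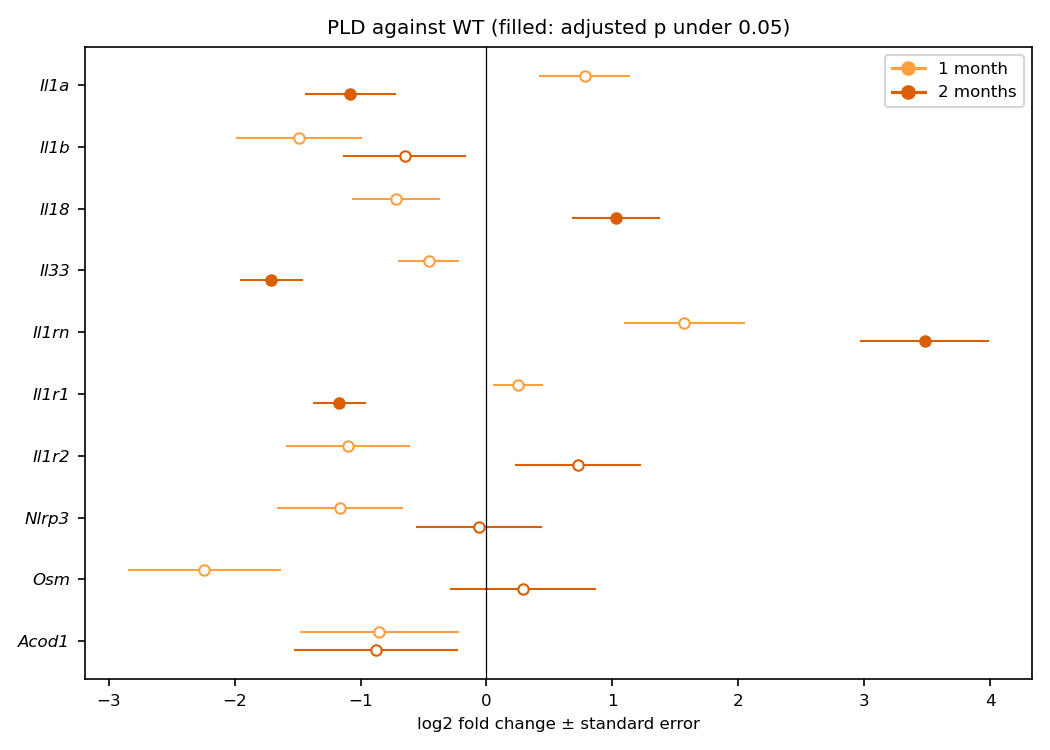
Log2 fold change of PLD against WT ± standard error (edgeR, n = 3 libraries per group) for the 10 genes at 1 and 2 months; filled points passed an adjusted p of 0.05. At 2 months Il1rn lies at 3.48 and Il33 at -1.71, and no 1 month point is filled.

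Between 1 and 2 months in PLD, Il1r1 fell by 0.88 log2 (SE 0.20, edgeR adjusted p = 0.0274) and the other 9 genes were not called, against 9.61% of all genes. The Il1r1 call was lost on leaving out any 1 of the 6 libraries (adjusted p from 0.0518 to 0.103). Osm was at 3 to 7.72 CPM at 1 month and 10.4 to 23.3 at 2 months in PLD, a difference of 1.88 ± 0.61 that was not called (adjusted p = 0.0715). In WT none of the 10 was called between the times, where edgeR called 9 genes in all, 0.0507%, with 2674 genes at an unadjusted p under 0.05 and 827 called by DESeq2. Il1a, Il1rn, Il1r1, Il1r2, Il18 and Il33 had an unadjusted p under 0.05 there, and DESeq2 called 0 of the 10. Of the interaction of genotype and time, which called 5.68% of all genes, Il1r1 was the single one of the 10 called by edgeR, and DESeq2, which called more genes in all, called 6. Its edgeR call was lost without PLD replicate 1 at 2 months (adjusted p = 0.0614), WT replicate 2 at 2 months (0.0649), PLD replicate 1 at 1 month (0.0581) or PLD replicate 3 at 1 month (0.0724).

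In 4 of the 6 groups 1 library was the lowest for 6 to 8 of the 10 genes, while in WT at 2 months and with ML324 no library was the lowest for more than 5. In PLD at 2 months, replicate 2 was the lowest of the 3 for 8 of the 10 genes, all but Il18 and Il33, and it had the lowest macrophage sum (1620 CPM against 2510 and 2740). In WT at 1 month, replicate 2 was the lowest for 7 genes, Il1b, Il18, Il1rn, Il1r2, Nlrp3, Osm and Acod1, and its neutrophil marker sum was 58.9 CPM against 163 and 261. These are descriptions of single libraries, and the part of such cells in the levels was not tested.

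In the treated groups Acod1 was at 75.5, 94.2 and 134 CPM with CPTH6 and 89.1, 145 and 96.9 with ML324, against 6.33, 4.55 and 14.8 in untreated PLD at 2 months. All 6 treated libraries exceeded all 12 untreated ones, of which WT replicate 1 at 1 month was the highest at 51.1. The fitted difference from untreated PLD at 2 months was 3.56 ± 0.42 log2 for CPTH6, 11.8-fold, and 3.73 ± 0.43 for ML324, 13.2-fold. Both comparisons use the same 3 untreated libraries, and since the genes were chosen with these levels known, no test is given. In the order of group means, ML324 and CPTH6 overlapped, both lay above WT at 1 month without overlap with it, and each further neighbour overlapped with the next.

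Il1r2 had 33.8, 43.5 and 55 CPM with CPTH6 and 41.5, 65.3 and 41.5 with ML324, above all 12 untreated libraries. Its difference from untreated PLD at 2 months was 2.01 ± 0.28 log2 with CPTH6 and 2.21 ± 0.28 with ML324. Nlrp3 had 71.8, 85.3 and 101 CPM with CPTH6 and 82.6, 92.5 and 65.4 with ML324, and the highest untreated library had 61.1. Its differences were 1.16 ± 0.31 and 1.11 ± 0.31. Decoy receptor and inflammasome sensor thus reached their highest levels of the study in the treated libraries.

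Il1b had 88.4, 143 and 171 CPM with CPTH6 and 140, 170 and 127 with ML324, all above the 3 untreated PLD libraries at 2 months. The differences were 1.38 ± 0.36 and 1.54 ± 0.37 log2. CPTH6 replicate 1 lay within the WT range, which reached 103 CPM. Il1rn had 334, 240 and 225 CPM with CPTH6 and 337, 194 and 375 with ML324, above every untreated library, with differences of 1.05 ± 0.31 and 1.28 ± 0.31. Antagonist and cytokine were both higher, and Il1rn per Il1b was 0.453 to 1.3 with CPTH6 and 0.393 to 1.02 with ML324, ranges that include most of the 0.773 to 1.12 of untreated PLD at 2 months.

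Il1r1 had 65.3, 59.7 and 46.8 CPM with CPTH6 and 63, 56.4 and 43.6 with ML324, below every untreated library, with differences of -0.72 ± 0.17 and -0.75 ± 0.18 log2. Il33 had 13.4, 13.5 and 11.3 CPM with CPTH6 and 11.6, 14.4 and 16.4 with ML324, also below every untreated library (-0.54 ± 0.14 and -0.35 ± 0.14). The receptor and the alarmin, already lower in PLD than in WT at 2 months, were thus lowest in the treated libraries. Il1a was higher than untreated PLD without overlap only with CPTH6, at 30.2, 51.8 and 37.3 CPM (1.23 ± 0.33), and had 14.5, 26.9 and 22.5 with ML324 (0.38 ± 0.33). Il18 and Osm overlapped with untreated PLD in both treated groups. Il18 differed by 0.11 ± 0.20 and 0.37 ± 0.20, and Osm by 0.36 ± 0.26 and 0.02 ± 0.26.

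**Figure D4:**
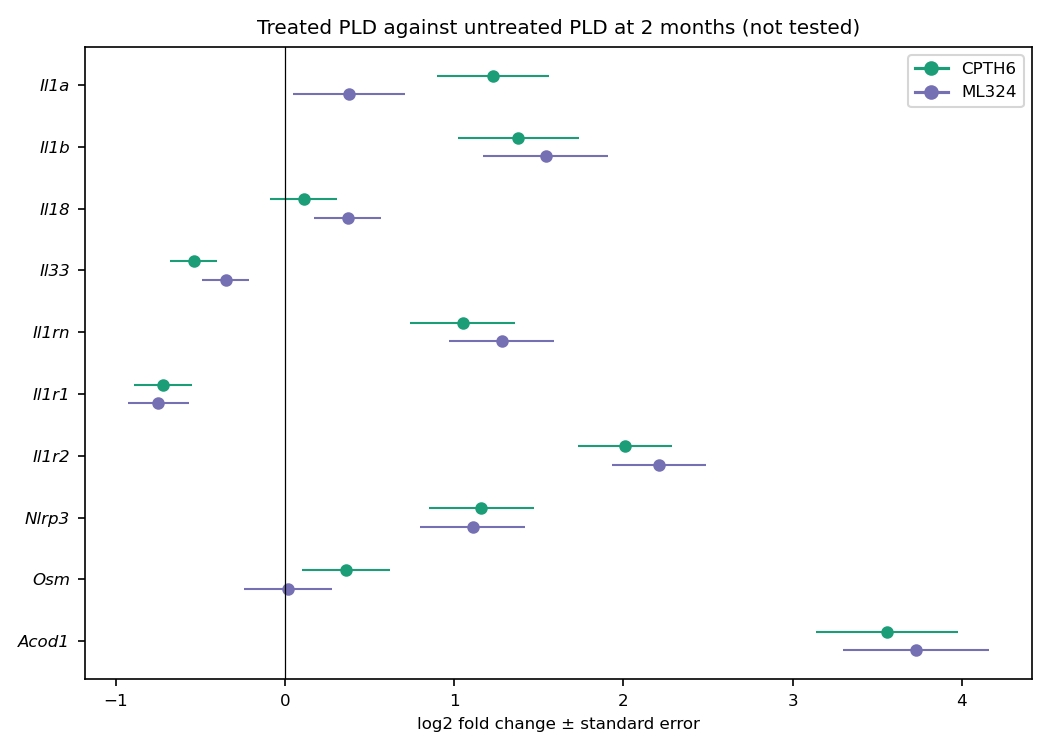
Log2 fold change ± standard error (n = 3 libraries per group, edgeR fit, not tested) of CPTH6 and of ML324 against the same 3 untreated PLD libraries at 2 months. Acod1 lies at 3.56 and 3.73, Il1r2 at 2.01 and 2.21, and Il1r1 at -0.72 and -0.75.

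With CPTH6, 6 of the 10 genes were higher than untreated PLD at 2 months without overlap, where 17.7% of all 16502 genes were, and 2 were lower, where 24.4% were. With ML324, 5 were higher, against 14.5% of all genes, and 2 lower, against 23.1%. The choice of genes used this contrast, so nothing is read from these counts. CPTH6 and ML324 themselves were compared by test, which the choice of genes did not use. None of the 10 was called, and edgeR called none of 15989 genes (0% called, 2008 at an unadjusted p under 0.05, 293 called by DESeq2). Il1a was higher with CPTH6 in 3 of 3 libraries, by 0.85 ± 0.25 (edgeR adjusted p = 0.278), and DESeq2 called it (adjusted p = 0.0412). No overlap between the compounds was seen for Il1a and for Osm, both higher with CPTH6, as for 12.3% of all genes.

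Markers of other cell types also differed between treated and untreated libraries. Neutrophil markers (11 genes) summed to 107, 826 and 1160 CPM with CPTH6 and 247, 834 and 140 with ML324, against 32.2, 18.9 and 53.1 in untreated PLD at 2 months, where Ly6g was at 0 in all 3 libraries. By edgeR 8 of 11 rose with CPTH6 and 5 of 11 with ML324, where 9.39% and 7.96% of all genes rose. The calcium-binding genes S100a8 and S100a9 rose with both. Members near 0 in untreated PLD at 2 months, such as Ly6g and Camp (0.161 ± 0.0138 CPM), passed the filter only through the treated libraries. The neutrophil counts are therefore read no further. The lowest CPTH6 library had 22.1 CPM of S100a8 and 39.9 of S100a9, above the highest WT library (18.5 and 32.2). Retnlg and Mmp8 went the same way. For Ngp (5.16 against 13.3), Camp, Ltf, Ly6g, Cd177, Csf3r and Cxcr2 the lowest CPTH6 library was below the highest WT library. Macrophage and Kupffer cell markers summed to 1740 to 2470 CPM with CPTH6, 1350 to 1640 with ML324 and 1620 to 2740 in untreated PLD at 2 months, and none of their 18 genes was at 0 in any group. Of the 17 tested, 7 fell with CPTH6 and 8 with ML324, Cd163, C1qc and Fcgr1 among them, and none rose, where 13.7% and 11.4% of all genes fell. All 12 stellate cell and fibroblast markers fell with both compounds (medians -3.52 and -2.96, against -0.04 and -0.01 over all genes), and 5 and 3 of 13 endothelial markers fell, beside the lower Il1r1 and Il33, and their part in those values was not tested. Mast cell and basophil markers summed to at most 2.44 CPM in any library. The part of neutrophils or macrophages in the Acod1, Il1b and Il1r2 values was not tested.

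**Figure D5:**
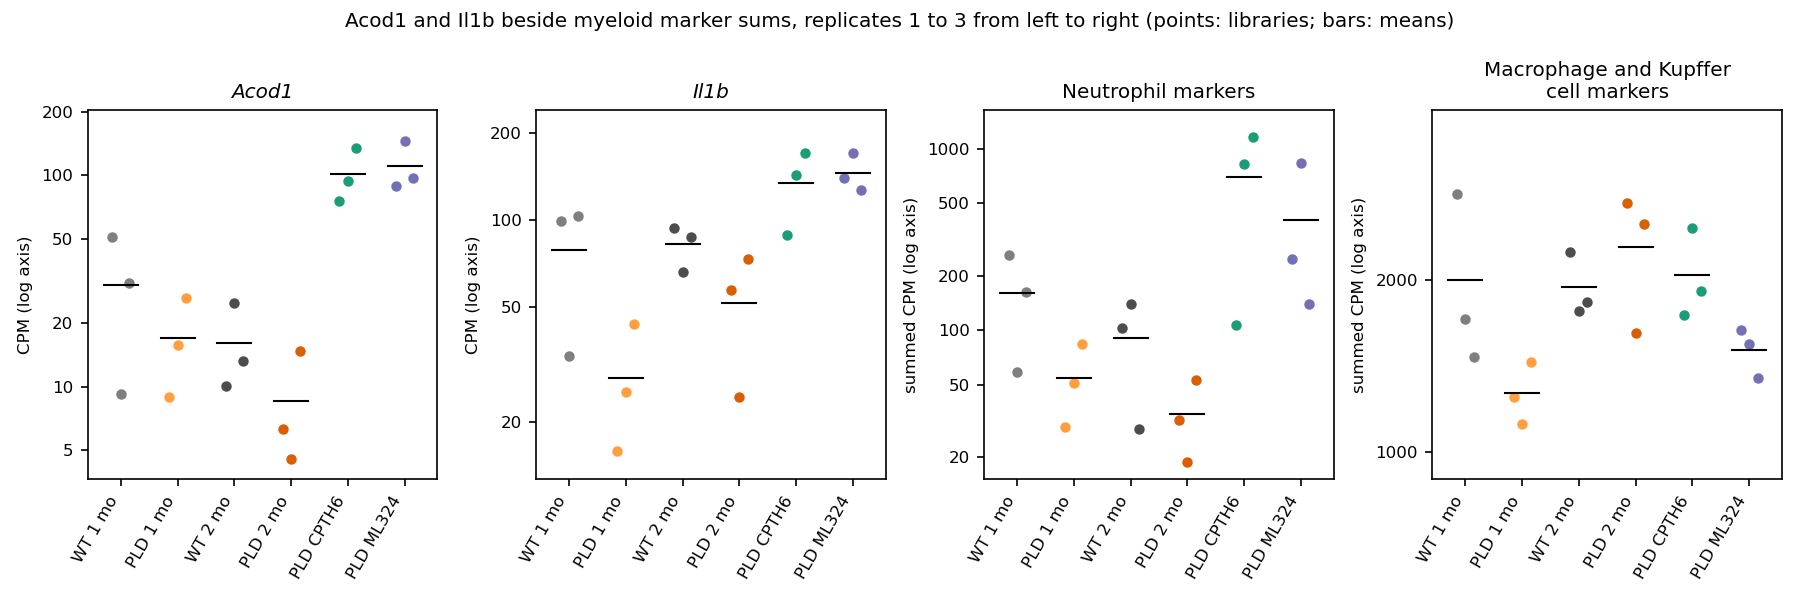
CPM of Acod1 and Il1b and summed CPM of neutrophil and of macrophage and Kupffer cell markers (log axes), by library; replicates 1 to 3 run from left to right and bars are means of 3. The neutrophil sum lies at 107 to 1160 with CPTH6 and 140 to 834 with ML324, against 18.9 to 53.1 in untreated PLD at 2 months.

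Genes with the most similar pattern over the 18 libraries were looked up for 6 of the 10, by Pearson correlation of log2 CPM among 18364 genes. The 10 genes themselves were left out of the ranking. These values describe libraries that share groups and preparation. For Acod1 they include the treated libraries by whose levels it was chosen, so nothing further is read from its likeness. Closest to Acod1 were Trem3 (r = 0.956), Trem1 (0.955) and Clec4e (0.954), all surface receptors of myeloid cells. Trem1 averaged 3.65 ± 1.69 CPM in PLD at 2 months, 36.1 ± 14.9 with CPTH6 and 37.9 ± 13.8 with ML324 (SD, n = 3). Closest to Il1b outside the 10 genes were Cd101 (0.924), Gpr35 (0.924) and the chemokine receptor gene Ccr1 (0.922). Nlrp3, one of the 10, was nearer to Il1b than these (r = 0.96). Closest to Il1rn were the glutathione transferase gene Gsta1 (0.979), Gfpt1 (0.978) and Mab21l3 (0.978). At 2 months Gsta1 averaged 0.226 ± 0.267 CPM in WT and 9.77 ± 3.62 in PLD. Closest to Il18 were Fam213a (0.946), Sorl1 (0.934) and the carbonic anhydrase gene Car2 (0.921), to Il33 Fez2 (0.984), Slc50a1 (0.975) and Plekha3 (0.972), and to Il1r1 the tubulin gene Tuba1a (0.97), Pxdn (0.967) and Tspan9 (0.967).

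The remaining genes of the interleukin-1 family, with receptors and signalling adaptors (25 genes, 19 tested in untreated libraries), had 3 members that rose and none that fell at 1 month (median 0.01, against -0.05 over all genes), where 5.03% of all genes were called. Il18r1, the ligand-binding chain for interleukin-18, rose by 2.03 ± 0.30 log2 (SE, edgeR adjusted p = 0.00701), from 2.92 ± 0.981 to 12 ± 2.08 CPM. Il1rap, the accessory chain that Il1r1 needs to signal, rose by 0.86 ± 0.17 and the ubiquitin ligase gene Traf6 by 0.48 ± 0.11. At 2 months 5 of 19 rose and 2 fell (median 0.16, against -0.03), beside the 19.7% of all genes that rose and the 20.3% that fell. Among them were the adaptor genes Tab2 (0.66 ± 0.12), Traf6 (0.50 ± 0.11) and Tab1 (0.74 ± 0.17). Between 1 and 2 months in PLD, Il1rap fell by 0.87 log2 (SE 0.17, adjusted p = 0.0182), and Il1rl1, the receptor for interleukin-33, rose by 2.50 ± 0.69 (adjusted p = 0.0459). Il1rl1 was very low, at 0.149 ± 0.116 CPM in PLD at 1 month and 0.801 ± 0.324 at 2 months. WT had 0.767 ± 0.446 and 0.546 ± 0.296 CPM of Il1rl1 at these times.

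Inflammasome and processing genes (23 genes, 22 tested) included 4 that fell and none that rose at 1 month (median -0.56, against -0.05 over all genes), where 5.03% of all genes were called. Nlrc4, a sensor of bacterial proteins, fell by 1.46 log2 (SE 0.27, edgeR adjusted p = 0.0187), P2rx7, an ATP-gated channel upstream of NLRP3, by 1.02 (SE 0.20) and Naip6 by 1.30 (SE 0.31). At 2 months 4 fell and 3 rose (median -0.14, against -0.03), near or below the 20.3% and 19.7% of all genes. Casp1, the protease that matures interleukin-1 beta and interleukin-18, fell by 2.60 log2 (SE 0.27, adjusted p = 0.000119), from 21.6 ± 1.95 to 3.51 ± 0.771 CPM. The channel gene Panx1 (0.92 ± 0.18) and the membrane rupture gene Ninj1 (0.61 ± 0.14) rose. In the interaction Casp1 was called as well, at -2.22 ± 0.36 (adjusted p = 0.016). Endothelial markers fell in both comparisons, and their part in the Casp1 values was not tested.

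Of the genes known to be induced by interleukin-1 and NF-kB (25 genes, 24 tested), none was called at 1 month by edgeR (median -0.17, against -0.05). Of all genes 5.03% were called there, so a count of 0 in a list this short says nothing particular about it. At 2 months 5 rose and none fell (median 0.07, against -0.03), with 19.7% of all genes higher. They included Bcl3, a nuclear regulator of NF-kB, at 1.25 ± 0.15 (edgeR adjusted p = 0.000183), Zc3h12a, an RNase that degrades cytokine messages, at 1.03 ± 0.20 and the chemokine gene Ccl20 at 2.58 ± 0.68. Of the oncostatin M receptor pathway (20 genes) none was called at 1 month, where 5.03% of all genes were. At 2 months 4 fell and 1 rose (median -0.01), beside the 20.3% and 19.7% of all genes. The shared signalling chain gene Il6st fell by 2.26 log2 (SE 0.26, adjusted p = 0.00019), from 2200 ± 640 to 456 ± 30.7 CPM, Lifr by 2.19 (SE 0.32) and Jak1 by 1.21 (SE 0.26). All 13 endothelial markers and several mesothelial and stellate cell markers fell in the same comparison. Their part in the falls of Il6st, Lifr and Jak1 was not tested. Of the genes of itaconate metabolism and response (26 genes, 25 tested), 9 rose and 1 fell at 2 months (median 0.30), where 19.7% of all genes rose and 20.3% fell. They included the succinate dehydrogenase subunit gene Sdhd (0.77 ± 0.10) and the mitochondrial carrier genes Slc25a10 (1.58 ± 0.24) and Slc25a1 (0.62 ± 0.10). Many listed genes, such as Cs and Idh2, serve the citric acid cycle at large. Acod1, which is not in the list, was not called, so these counts say nothing particular about itaconate. At 1 month, where 5.03% of all genes were called, only Clybl of that list was, at -0.72 ± 0.18 (edgeR adjusted p = 0.0467).

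In the treated groups the same lists are given beside the 23.1% of genes called for CPTH6 (9.39% higher, 13.7% lower) and the 19.4% for ML324 (7.96% higher, 11.4% lower), and read no further. Of the interleukin-1 family list (20 tested) 7 were higher and 3 lower with CPTH6, and 3 higher and 1 lower with ML324. Il36g, an epithelial interleukin-36 ligand, was higher by 5.16 ± 0.76 log2 with CPTH6 and 4.73 ± 0.76 with ML324. It was at 0.516 ± 0.7 CPM in untreated PLD at 2 months, 19.4 ± 5.73 with CPTH6 and 14 ± 8.67 with ML324. Il36g passed the filter on low counts only through the treated libraries, so no p-value is given for it. Il1rl2, the interleukin-36 receptor chain, was lower by -2.29 ± 0.36 and -2.22 ± 0.37. Of the inflammasome list (21 tested) 2 were higher and 2 lower with CPTH6, and 1 higher and 3 lower with ML324. P2rx7 was lower by -1.89 ± 0.23 and -2.26 ± 0.24, and Mefv, the sensor pyrin, higher by 1.94 ± 0.39 and 2.55 ± 0.39. Of the induced genes (25 tested) 7 were higher and 2 lower with CPTH6, and 6 higher and 2 lower with ML324. Ptgs2, which encodes an inducible prostaglandin synthase, was higher by 1.13 ± 0.22 and 1.07 ± 0.22 with CPTH6 and ML324. Of the oncostatin M receptor pathway (20 tested) 4 were higher and 4 lower with CPTH6, and 0 higher and 3 lower with ML324. Of the itaconate list (25 tested) 2 were higher and 2 lower with CPTH6, and 0 higher and 1 lower with ML324, below the share of all genes called for each compound.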

How the data were processed

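The submitters' processing notes name STAR 2.7.4a, SAMtools 1.12, featureCounts 1.6.0 and DESeq2 1.26.0, and the mm10 genome. Per the file headers, the deposited counts are whole numbers per gene of GENCODE vM25, counted without strand. No value was normalized by the authors. Symbols came from a GENCODE mouse annotation and matched 55141 of 55401 genes, and 4 list genes were matched through synonyms.

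Counts were tested here with edgeR 4.0.16 in R 4.3.3 (filterByExpr, TMM, quasi-likelihood F test, Benjamini-Hochberg adjustment over all genes tested, adjusted p under 0.05 called). The 12 untreated libraries shared a fit, the 6 treated libraries another, and those 6 with untreated PLD at 2 months formed a separate one. Each standard error is |log2 fold change| over the root of F. CPM uses TMM-scaled totals over 18 libraries, and log2 CPM a prior count of 2. Comparisons of the 10 genes between treated and untreated PLD carry no test, because their choice used these levels. The scripts were tested on simulated counts. No 2 libraries of a group held the same counts.

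The 10 genes and all lists were chosen with earlier results of these data known. Genes named from a list are the called members with the smallest adjusted p, at most 3 per list and comparison. Genes named for likeness are the 3 with the highest correlation, predicted genes and the 10 genes themselves left out. Alternatives were other normalization, DESeq2 1.42.0, limma-voom (limma 3.58.1), no filter, other libraries in the fit, a replicate block, and leaving out libraries.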

Additional observations from a re-analysis of the deposited data

Results flagged for a closer look

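In edgeR, Il1r1 was the single gene of the 10 whose difference between PLD and WT itself was called as different between 1 and 2 months. DESeq2 called 6 of the 10, the unfiltered fit 7 and the fit of all 18 libraries 5. The main edgeR fit called 5.68% of all genes and each of these fits called more genes in all, so nothing is read from these counts. For Il1r1 the interaction of genotype and time was -1.42 log2 (SE 0.29, edgeR adjusted p = 0.0252). PLD had 177 ± 14.9 CPM against 147 ± 37.3 in WT at 1 month, and 94.5 ± 14.9 against 215 ± 37.2 at 2 months (SD, n = 3). The interaction was called in 14 of 19 alternative settings. Endothelial markers moved the same way, with 12 of 13 lower in the interaction, where 5.68% of all genes were called. Their part was not tested.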

How the results depend on the processing

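Of 830 alternative values of the 10 genes, 729 kept direction and side of the threshold, 22 lost a call, 53 gained one and 26 changed sign without a call. All directions held with DESeq2 size factors in edgeR.

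Genes called in PLD against WT at 1 month numbered 2477 with DESeq2, 2194 without a filter, 29 with only the groups compared, 3541 without the WT libraries that stand apart and 99 to 3485 on leaving out a library (3485 without WT replicate 3); of the 10 genes 3, 6, 0, 2 and 0 to 2 were called. At 2 months 5324 to 6350 genes and 3 to 4 of the 10 were called on leaving out a library. For time in PLD the counts were 3493 with DESeq2, 2818 unfiltered, 3811 with only the groups compared, 3861 without those WT libraries and 135 to 644 on leaving out a library, with 2, 6, 3, 2 and 0 to 0 of the 10. For time in WT they were 827 with DESeq2, 24 with limma-voom, 1224 unfiltered (5 of the 10), 0 with only the groups compared, 184 without those WT libraries and 0 to 389 on leaving out a library. For the interaction they were 2374 with DESeq2 (6 of the 10), 2282 unfiltered (7), 1561 with all 18 libraries (5), and 100 to 1413 on leaving out a library (0 to 5), and 2 of the 10 without those WT libraries. Between the compounds they were 293 with DESeq2 and 232 unfiltered (1 of the 10 in each), and 0 to 3 on leaving out a library. Against untreated PLD they were 2490 to 3284 for CPTH6 and 1939 to 3043 for ML324 on leaving out a library. The cause of these shifts was not tested beyond the smaller number of samples.

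Uncalled values that changed sign, at 2 months against WT, were Nlrp3 (0.29 without PLD replicate 2, 0.12 without WT replicate 3, range -0.34 to 0.29) and Osm (-0.06 without WT replicate 2, range -0.06 to 0.59). For time in WT they were Nlrp3 (0.07 with limma-voom, 0.08 without those WT libraries, 0.01 without WT replicate 2 at 2 months, 0.20 and 0.03 without replicates 1 and 3 at 1 month, range -0.50 to 0.20), Osm (0.10 without replicate 1 at 1 month, range -1 to 0.10) and Il1b (-0.04 and 0 without replicates 1 and 3 at 2 months, -0.35 without replicate 2 at 1 month, range -0.35 to 0.30). For the interaction it was Acod1 (-0.65 to 0.46 on leaving out a library). Between the compounds they were Acod1 (-0.43 to 0.08), Il1b (-0.39 to 0.06), Il1r1 (-0.10 to 0.16), Il1r2 (-0.40 to 0.04) and Nlrp3 (-0.08 to 0.17), each on leaving out a library.

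Samples share only replicate numbers: deviations from group means correlated between -0.228 and 0.256 in 45 same-numbered pairs (11 over 0.1). With the replicate block, 965 genes and 0 of the 10 were called for time in PLD, 0 genes for time in WT, 426 genes and 0 of the 10 in the interaction, 1 gene between the compounds, and 1 of the 10 at 1 month (Osm); the adjusted p of Il1r1 was 0.0527 for time in PLD and 0.0515 in the interaction, and Nlrp3 changed by 0.03 for time in WT.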
